A study of Rattus norvegicus with 4 samples.

Results

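Il24 and Aoc1 were 2 of the 32402 genes counted in 4 rat kidney sections, each found by its symbol in the count tables (ENSRNOG00000004470 and ENSRNOG00000008575). They were selected on measured values: both had UMIs throughout the injured section PAN and very few, though not 0, in the section healthy. A UMI is a unique molecular identifier and stands for 1 captured RNA molecule. The contrast of PAN with healthy chose the genes, so it is given here as a description and supports nothing. What the choice did not use is where in PAN the 2 genes lay, whether they shared spots, and which other genes those spots held.

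The sections were 10 µm frozen slices of kidney from Sprague-Dawley rats, read with the 10x Visium assay, which captures RNA on a grid of spots that can each hold several cells of different types. PAN came from a rat injected with puromycin aminonucleoside (PAN), a podocyte toxin that produces nephrotic disease, fed ad libitum, and taken at 5 months from injection, which was 6 weeks post treatment. PAN_LS-FMD came from a rat with the same injection that was then given 6 cycles of LS-FMD, a diet that mimics fasting and is low in salts, and it was taken at the same times. The section healthy came from an untreated, uninjected rat, and healthy_LS-FMD from an uninjected rat given LS-FMD for 1 cycle and then refed for 72 h. The labels give no age. All 4 are whole kidney tissue with no transgene or sorting, and each group is 1 section, so no test between groups was possible and a difference between groups cannot be told apart from one between single animals. Counts for healthy came from another software version than those of the other 3 sections, which cannot be told apart from the group. Intervals below are exact 95% intervals of counting error only.

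Interleukin 24 is a secreted cytokine of the IL-20 subfamily, made by stressed epithelia and immune cells. It binds receptor pairs built from Il20ra or Il22ra1 with Il20rb, which relay through JAK kinases to STAT3. Aoc1 encodes diamine oxidase, a secreted copper enzyme that breaks down histamine and the polyamine putrescine, and it has been described as a target of the podocyte transcription factor WT1 in the developing kidney. Havcr1 (kidney injury molecule 1) and Spp1 (osteopontin) are the classical genes of injured tubule and serve below as partners.

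The stretches in front of the 2 genes are printed because both genes differed so widely in UMIs between sections. Each is the 250 bases before the gene's start in RefSeq build GRCr8, written 5′ to 3′ along the gene, with matches to the searched motifs in capitals.
Il24: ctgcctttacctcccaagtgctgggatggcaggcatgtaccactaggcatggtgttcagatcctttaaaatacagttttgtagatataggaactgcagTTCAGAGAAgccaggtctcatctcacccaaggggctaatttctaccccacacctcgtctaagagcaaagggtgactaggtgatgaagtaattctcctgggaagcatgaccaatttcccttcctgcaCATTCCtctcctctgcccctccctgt
Aoc1: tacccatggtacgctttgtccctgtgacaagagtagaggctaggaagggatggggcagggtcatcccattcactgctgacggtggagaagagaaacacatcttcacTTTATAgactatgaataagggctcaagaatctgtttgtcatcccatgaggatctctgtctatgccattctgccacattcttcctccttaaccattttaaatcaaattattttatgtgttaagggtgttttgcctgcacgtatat
The Il24 stretch lies at chr13:44910761-44911010 on the minus strand, and the Aoc1 stretch at chr4:79142876-79143125 on the plus strand. Both strands were searched for AP-1 (TGANTCA), CRE (TGACGTCA), STAT (TTCNNNGAA), TEAD (CATTCC), C/EBP (TTGCNNAA), TATA box (TATAAA) and HNF1 half-site (GTTAAT) letters. The Il24 stretch held 1 STAT match, 152 to 144 bases before the start, and 1 TEAD match, 26 to 21 bases before it. Among 33469 RefSeq promoter stretches of this length, 7.67% held a STAT match and 12.1% a TEAD match. The Aoc1 stretch held 1 TATA box match on the opposite strand, 144 to 139 bases before the start, a motif held by 12.9% of all stretches. AP-1 letters (6.34% of all stretches), CRE (1.59%), C/EBP (9.22%) and HNF1 half-site letters (6.45%) were in neither. A match is a description of letters and not of binding.

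Il24 had 1036 UMIs in PAN, 11 in healthy, 4 in PAN_LS-FMD and 2 in healthy_LS-FMD. In UMIs per 1000000 UMIs of the section (CPM) this was 41.6 (39.1 to 44.2), 0.188 (0.0938 to 0.336), 0.114 (0.0312 to 0.293) and 0.0790 (0.00956 to 0.285). PAN stood far above the other 3 sections, whose intervals overlapped one another, so the order among those 3 was not resolved at this depth. PAN was also the shallowest section, with 24924170 UMIs in spots of at least 500 UMIs, against 58568499 in healthy, 34965670 in PAN_LS-FMD and 25330872 in healthy_LS-FMD.

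Aoc1 had 537 UMIs in PAN, 3 in healthy, 1 in PAN_LS-FMD and 3 in healthy_LS-FMD. Its levels were 21.5 CPM (19.8 to 23.4), 0.0512 (0.0106 to 0.150), 0.0286 (0.000724 to 0.159) and 0.118 (0.0244 to 0.346). As for Il24, PAN lay apart and the other 3 sections could not be ordered. The injury genes were also highest in PAN, and had over 100 UMIs in every section: Havcr1 was at 219, 8.43, 6.21 and 5.49 CPM and Spp1 at 17165, 332, 225 and 1292 CPM, in the same order of sections. Of the 32727 Spp1 UMIs of healthy_LS-FMD, 25227 lay in medulla regions. These were 1049 of its 2593 spots, against 542 of 2724 in PAN. Spp1 was at 2749 CPM in medulla and 468 in cortex of healthy_LS-FMD, and at 740 and 217 in healthy. The part of medulla in the section levels of Spp1 was not tested. In bulk sums like these, fewer cells of a type and less RNA per cell cannot be told apart.

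PAN over healthy, the contrast that chose the genes, was 221-fold for Il24 (123 to 445) and 421-fold for Aoc1 (143 to 2046). Among the 13208 genes with at least 20 UMIs over these 2 sections, 2.25% were at least 10-fold higher in PAN with an interval that did not reach 1. PAN over PAN_LS-FMD was 363-fold for Il24 (141 to 1336) and 753-fold for Aoc1 (135 to 29810), the second resting on 1 UMI, against 2.23% of 12850 genes at least 10-fold lower in PAN_LS-FMD. Both comparisons use the same PAN section. The injury gene Havcr1 had 25.9-fold (23.6 to 28.5) and 35.2-fold (30.7 to 40.5), and Spp1 51.6-fold (50.9 to 52.4) and 76.2-fold (74.5 to 78.0), in the same 2 comparisons. Il24 in PAN_LS-FMD over healthy was 0.609 (0.141 to 2.06), so a difference between these was not detectable, and for Aoc1 no fold is given because both counts were 3 or fewer.

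**Figure D1:**
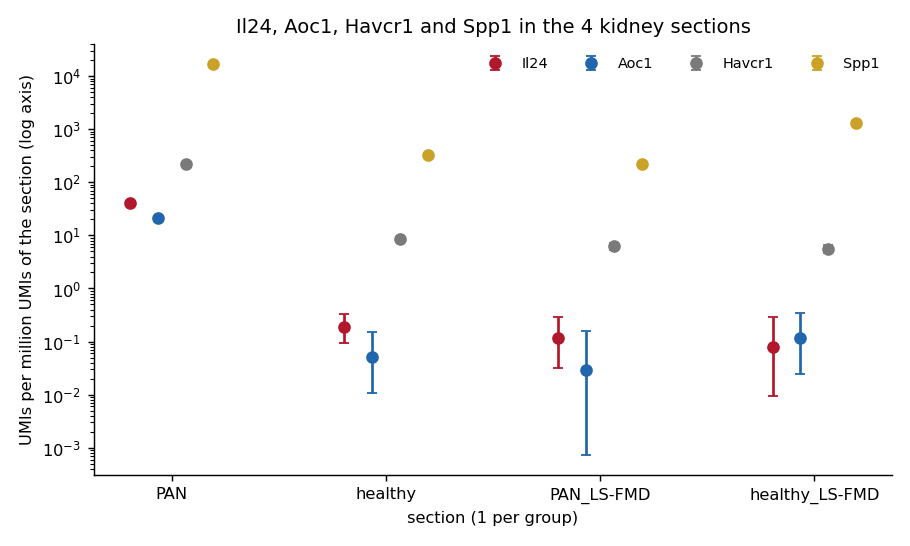
Level of Il24, Aoc1, Havcr1 and Spp1 in each of the 4 sections, in CPM on a log axis, with exact 95% counting intervals. Il24 stood at 41.6 and Aoc1 at 21.5 in PAN and neither was above 0.188 in the other 3 sections, while Havcr1 was never below 5.49.

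The few UMIs outside PAN lay in separate spots with 1 UMI each. The 11 Il24 spots of healthy included 8 in outer stripe regions, 2 of them in the region led by Havcr1, and 3 of the 11 also held Havcr1, which 368 of 2866 healthy spots did (12.8%). In PAN_LS-FMD 1 of the 4 Il24 spots held Havcr1, and in healthy_LS-FMD neither Il24 spot did. No Aoc1 spot outside PAN held Havcr1. These counts are too small to place either gene in a region of an uninjured kidney.

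Ranked by PAN CPM over the highest of the other 3 sections, among 9200 genes with at least 100 UMIs in PAN, Il24 was the 1st and Aoc1 the 2nd, at 221 (123 to 445) and 182 (61.9 to 885). These rest on 11 and 3 UMIs in the other section, so the order of the leading genes was not resolved. Both genes were chosen for high counts in PAN and low counts in healthy, so their places follow from that choice and support nothing. The 10 genes behind them were Mcpt1 (134), Postn (80.8), Trpv6 (52.6), Reg3g (52.5), Cr2 (52.2), Cpa3 (48.1), Mcpt8l2 (38.4), Mcpt8l3 (38.2), Cdkn2b (34.7) and Wnt7a (29.5). Mcpt1 and Cpa3 are mast cell proteases, Postn is the matrix protein periostin, Trpv6 a calcium channel and Cdkn2b a cell cycle inhibitor. Of the mast cell list, Mcpt1 had 1191 UMIs in PAN, 11 in healthy, 0 in PAN_LS-FMD and 9 in healthy_LS-FMD, and Cpa3 had 142, 1, 1 and 3. Kit, a receptor that other cell types also make, had 37.2 CPM in PAN, 17.0 in healthy, 15.5 in PAN_LS-FMD and 33.5 in healthy_LS-FMD. It made up nearly all of the list's sum outside PAN, which was 17.3, 15.6 and 34.0 CPM against 92.04 in PAN, and Mcpt2 was at 0 in all sections. The part of these genes in the levels of Il24 and Aoc1 was not tested between sections, and their levels in the spots of both are given below.

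On the genome, Il24 sits next to Il20, Il19 and Il10, cytokine genes of the same family. Il20 had 4 UMIs in PAN and Il19 had 10, both had 0 in the other 3 sections, and Il10 had 0 in all 4. On its other side Fcmr, an IgM receptor, had 31.3 CPM in PAN, 6.03 in healthy, 4.86 in PAN_LS-FMD and 11.3 in healthy_LS-FMD. Aoc1 lies beside Tmem176a and Tmem176b, which had 464 and 578 CPM in PAN against 105 and 133 in healthy, and beside Doxl1 and Doxl2, which had 0 UMIs everywhere. So the closest cytokine genes of Il24 had UMIs in PAN alone, but too few for a level to be set beside it.

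Within PAN, Il24 was held by 717 of 2724 spots (26.3%, 24.7 to 28.0) and Aoc1 by 445 (16.3%, 14.97 to 17.8). In healthy, whose low counts chose the genes, the shares were 0.384% and 0.105%, which do not measure how far UMIs spread between spots of PAN. Of the Il24 spots, 530 held 1 UMI (73.9%), 187 held 2 or more and the highest held 9. Of the Aoc1 spots, 366 held 1 UMI (82.2%), 79 held 2 or more and the highest held 4. Both genes were thus spread thinly over many spots, Il24 more unevenly than Aoc1: the variance of UMIs per spot over their mean was 1.73 for Il24 and 1.201 for Aoc1.

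Spots with Il24 were deeper, with a median of 9972 UMIs against 8041 in spots without, and spots with Aoc1 had 9532 against 8290. Over 10 equal groups of spots ordered by depth, the share with Il24 was 11.4% in the shallowest and 40.8% in the deepest, while its level ranged only from 33.8 to 49.8 CPM. The share with Aoc1 was 8.79% and 23.2% at these ends, and its level was highest in the shallowest group, at 30.2 CPM, and lowest in the deepest, at 15.6. Shares of spots therefore follow depth, and levels in CPM are used below. For Aoc1 the CPM also differed with depth, so its levels in spots of unlike depth are descriptions. With each spot thinned to 5000 UMIs, which left out 401 shallower spots, 16.9% of 2323 spots held Il24 (15.4 to 18.5) and 9.90% held Aoc1 (8.72 to 11.2).

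**Figure D2:**
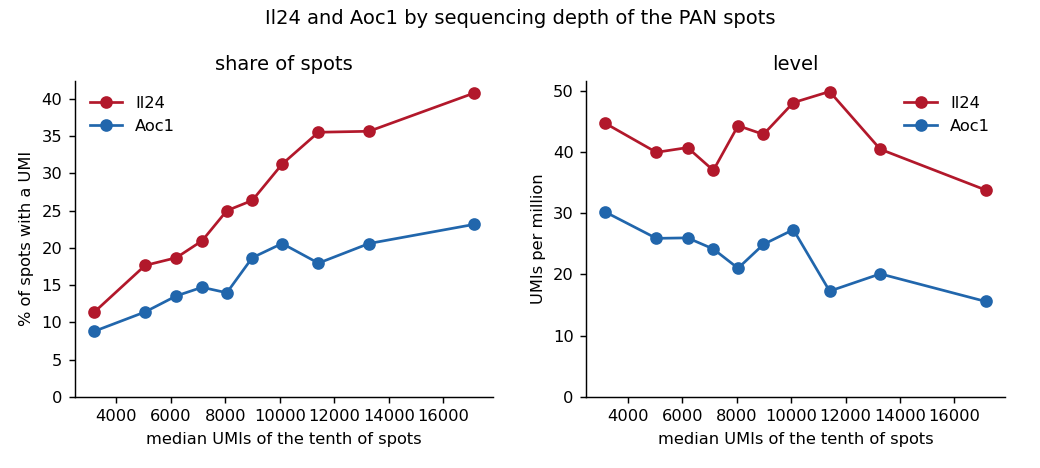
Share of spots with a UMI (left, percent) and level (right, CPM) of Il24 and Aoc1 in 10 equal groups of PAN spots, against the median UMIs of each group. Deeper groups have the higher shares, from 11.4 to 40.8% for Il24, whereas the level of Il24 stays between 33.8 and 49.8.

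The 2 genes shared 131 spots. Il24 alone was in 586 spots, Aoc1 alone in 314 and neither in 1693. Aoc1 was in 18.3% of Il24 spots (15.5 to 21.3) and in 15.6% of the others (14.1 to 17.3). After thinning these were 10.97% (8.05 to 14.5) and 9.68% (8.40 to 11.1), so no difference was detectable at this depth. Read from Aoc1, Il24 was in 29.4% of Aoc1 spots (25.2 to 33.9) and 25.7% of the others (23.9 to 27.6), and in 18.7% and 16.7% after thinning.

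Clustered without Il24 and Aoc1, PAN fell into 11 regions, called here by their leading genes. Il24 was in all of them. It was highest in the region led by Postn, Car3, Ankrd1 and Lum (matrix and wound genes, 284 spots) at 70.8 CPM (60.6 to 82.3) and in the medulla region led by Slc12a1, Kng1l1, Gp2 and Cldn16 (thick ascending limb genes, 208 spots) at 70.7 (58.7 to 84.4). These could not be told apart, and the region led by Slc5a2 and Stra6 (Slc5a2 is the glucose transporter of early proximal tubule) followed at 55.7 (46.2 to 66.6). The lowest were the region led by Slc4a1 and Aqp3 (collecting duct genes) at 22.1 (13.9 to 33.5) and the outer stripe region led by Olr1668, Iqch, Slc7a12 and Slc7a13 (late proximal tubule genes) at 24.0 (19.9 to 28.8).

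Aoc1 was placed otherwise. It was highest in the same Postn-led region at 46.6 CPM (38.4 to 56.1), in the region with Pnoc, Igfbp2 and Ptpro among its leading genes (Ptpro is a podocyte phosphatase, 32 spots, 14 UMIs) at 45.7 (25.0 to 76.7) and in the region led by Calb1, Klk1c9 and Slc12a3 (distal tubule genes, 114 spots) at 39.1 (29.1 to 51.4). These intervals overlapped, and under other clusterings regions of 27 or 35 spots, almost all outside the Postn-led one, had the highest Aoc1, at 47.2 and 47.7. The lowest was the medulla region led by Slc4a11 and Plet1 at 3.43 (1.26 to 7.46), from 6 UMIs in 223 spots. Il24 stood there at 47.4 (37.8 to 58.8), an interval that held its 41.6 over the whole section. The Postn-led region was counted as cortex by a distal tubule list score only 0.15 above the mean over regions (log2), while its fibroblast list score was 0.75. By zone, Aoc1 had 32.0 CPM in cortex, 13.2 in outer stripe and 10.5 in medulla, and Il24 45.1, 32.8 and 50.8. Over the 11 regions the log2 levels of the 2 genes had a Pearson r of 0.18, a description over regions of 1 section that differ in depth.

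**Figure D3:**
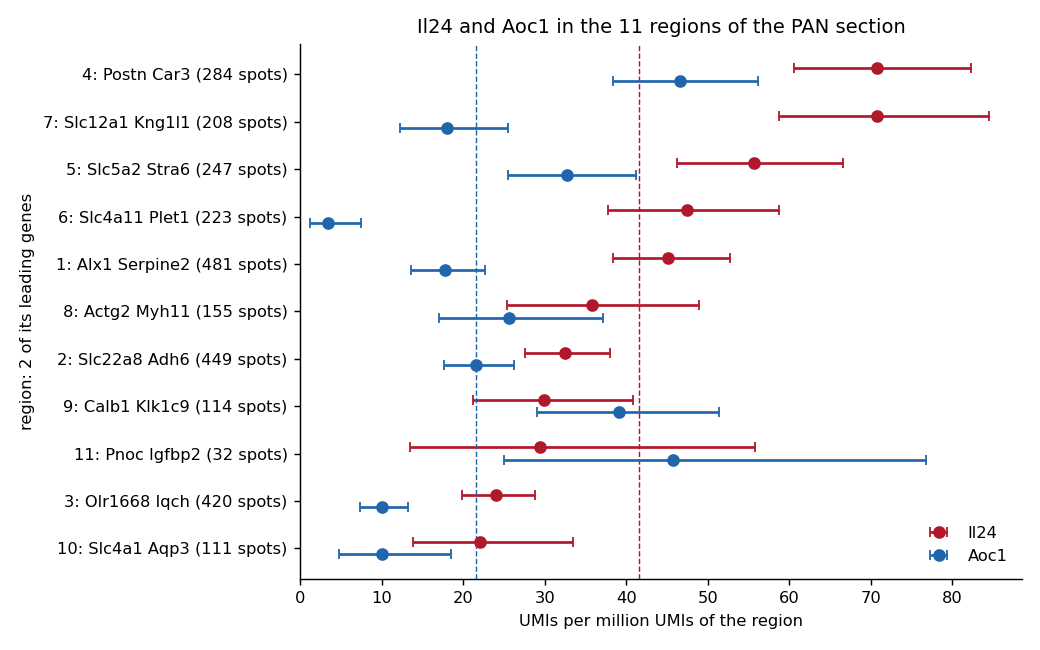
Level of Il24 and Aoc1 (CPM of the region, exact 95% counting intervals) in the 11 regions of PAN, ordered by Il24, with dashed lines at each gene's level over the whole section. Both were high in the Postn-led region, whereas Il24 alone was high in the region led by Slc12a1 (70.7 against 18.0 for Aoc1) and Aoc1 stood above its mean, and Il24 below its own, in the region led by Calb1.

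Finer clustering, into 23 regions, gave a small group of 33 spots with the highest Il24 of any, at 180 CPM (124 to 253), from 33 UMIs in 19 spots, against 84.4 in the next. Of its spots 31 came from the Slc12a1-led region, and its leading genes were Clu, S100a11, Slc12a1, Cd24, Clic1 and Phyh. In the group Slc12a1 stood at 1019 CPM and Umod, another thick ascending limb gene, at 6902. These were below the 2574 and 19927 of the other spots of the Slc12a1-led region. Over all spots outside the group they were at 502 and 5198. Clu, which encodes the secreted chaperone clusterin, stood at 9688 CPM in the group, and Spp1 at 25677. Havcr1 stood at 191 (133 to 265), near its 219 over the whole section but above the 126 (109 to 145) of the other spots of the Slc12a1-led region. Aoc1 had 3 UMIs in the group. Lamb3, a laminin chain of epithelial basement membrane, stood there at 114 CPM and the calcium channel Trpv6 at 125, these being named after their values were seen. The group was picked as the highest of 23 and its spots had a median of 4648 UMIs, so its level is a description.

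Il24 spots held more of the injury genes. Havcr1 was at 302 CPM in spots with Il24 and 182 in spots without, a ratio of 1.66 (1.57 to 1.75), and was held by 75.3% against 62.1% of them. After thinning the shares were 59.7% and 51.4%, with a ratio of 1.55 (1.41 to 1.70). Havcr1 was the 2nd of 8309 genes by this ratio, whose median over all those genes was 0.988. The ratio was above 1 in each of the 11 regions, from 1.07 to 2.25, with 5 intervals above 1, so the higher Havcr1 was present within regions and not only between them.

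Read the other way, Il24 was at 35.6 CPM (31.3 to 40.4) in 937 spots without Havcr1 and 33.4 (30.003 to 37.0) with 1 or 2 Havcr1 UMIs. It was at 50.7 (44.5 to 57.5) with 3 to 5 and 73.4 (63.5 to 84.5) with 6 or more. Il24 was thus counted in spots where no Havcr1 UMI was, which at their depth does not show that Havcr1 was absent, and it was higher in those with 3 or more. Median depth was 6871 UMIs in the first of these groups and 11681 in the last. In 4 equal groups of 681 spots ordered by Havcr1 CPM instead, Il24 was at 37.4, 29.7, 37.5 and 62.0 CPM, so the highest group alone stood apart. Ordered by Spp1 CPM it was at 23.3, 32.5, 44.1 and 65.6, and ordered by Lcn2 (lipocalin 2, an injury protein of the tubule) at 28.8, 33.5, 38.0 and 67.3.

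Spp1 was held by every spot of PAN. Its level was 19577 CPM in Il24 spots and 16116 in the others, a ratio of 1.21 (1.21 to 1.22), above 1 in 9 of 11 regions. Lcn2 had 1.31 (1.24 to 1.39) and Clu 1.32 (1.30 to 1.34). Not all injury genes went along: Vcam1 had 0.927 (0.847 to 1.01) and Sox9, a transcription factor of repairing tubule, 0.971 (0.756 to 1.24). The other genes with the highest ratios in Il24 spots were Car3 at 1.74 (1.52 to 1.99), Reg3g 1.64, Fbxo2 1.60, Trim46 1.57, Adra1d 1.57, Wisp2 1.51, Trmt5 1.49, Tgfb2 1.48 and Dsc2 1.48. Car3 is a carbonic anhydrase, Reg3g a secreted antimicrobial lectin, Adra1d an adrenergic receptor and Tgfb2 a TGF-beta ligand.

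No list of an uninjured tubule segment had a ratio above 1 in Il24 spots. The distal convoluted and connecting tubule list had a ratio of 0.951 (0.891 to 1.02), the early proximal list 0.953 (0.941 to 0.966), the late proximal (S3) list 0.946 (0.931 to 0.962) and the thick ascending limb list 0.901 (0.891 to 0.911). Lower were the principal cell list at 0.750 (0.721 to 0.780), with 5 of 5 genes below 1, and the B and plasma cell list at 0.796 (0.778 to 0.814). Aqp2, the water channel of principal cells, was at 211 CPM against 287, and Slc4a1, the anion exchanger of intercalated cells, at 82.5 against 130. The macrophage list was at 0.988 (0.962 to 1.02) and the mast cell list at 1.11 (1.01 to 1.21), with Mcpt1 itself at 1.02 (0.903 to 1.16).

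Aoc1 spots had another company. Calb1, the calcium-binding protein of distal and connecting tubule, was at 102 CPM in spots with Aoc1 and 31.4 in spots without, a ratio of 3.26 (2.88 to 3.67) and the 1st of 8309 genes, over which the median was 0.981. It was held by 23.4% against 16.1% of the spots, and by 20% against 11.8% after thinning, with a ratio of 2.40 (1.92 to 2.97). Among the next were Klk1c9, a kallikrein, at 2.31, Tnnc1 2.09, Nphs1 (nephrin) 2.04, Fetub 2.03, C1qtnf4 1.99, Postn 1.91 and Pnoc 1.89. Slc12a3, the salt transporter of the distal convoluted tubule, had 1.86 (1.72 to 2.004).

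As a list, distal convoluted and connecting tubule markers had a ratio of 2.16 (2.03 to 2.30) in Aoc1 spots. Of the 4 genes of this list that had UMIs, 3 were above 1, and Pvalb was at 0. Podocyte markers had 1.51 (1.37 to 1.65), with 5 of the 5 podocyte genes that had UMIs above 1, Wt1 among them at 1.54 (1.05 to 2.23). Low were the S3 list at 0.627 (0.613 to 0.641) and the thick ascending limb list at 0.695 (0.685 to 0.706). Of S3 genes, Slc7a13 was at 136 CPM against 273, and Kap, an androgen-regulated protein of this segment, at 1270 against 2223. The sum of the S3 list was 1866 CPM in spots with Aoc1 and 2977 in spots without, so most of it was Kap. Of the 6 genes of this list, 1 had a ratio above 1. The S1 and S2 list stood at 1.05 (1.04 to 1.07), and the mast cell list at 1.27 (1.15 to 1.40), with Mcpt1 at 1.26 (1.10 to 1.45) and, after thinning, 1.12 (0.848 to 1.46).

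The distal tubule markers marked a part of the Aoc1 spots only. Aoc1 was at 17.9 CPM (15.7 to 20.5) in 1514 spots with no UMI of Calb1 or Slc12a3, 20.5 (17.6 to 23.8) with 1 or 2, 35.3 (27.7 to 44.3) with 3 to 5 and 36.2 (27.7 to 46.5) with 6 or more. Il24 was at 43.3, 41.6, 37.7 and 33.2 in the same groups, with overlapping intervals. Median depth was 7515.5 UMIs in the first of these groups and 11162 in the last. Within regions the Calb1 ratio was above 1 in 6 of 11, with a median of 1.11. It was 2.30 in the Calb1-led region. In the region led by Slc4a1 and Aqp3 it was 6.01 (3.40 to 10.4), from 8 spots with Aoc1 that held 22 Calb1 UMIs. In that led by Slc12a1 it was 4.70 (1.61 to 13.2), from 18 Calb1 UMIs. In the Postn-led region, where Aoc1 was high, it was 0.537.

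Of the injury genes, Havcr1 and Spp1 showed a smaller excess in Aoc1 spots than in Il24 spots. Lcn2 showed none that was detectable, at 1.03 (0.965 to 1.11). Havcr1 had a ratio of 1.21 (1.14 to 1.30) in Aoc1 spots and was the 320th of 8309 genes, and Spp1 had 1.08 (1.07 to 1.09). The Havcr1 interval lay below that of Il24 spots, but after thinning it was 1.39 (1.24 to 1.56) against 1.55 (1.41 to 1.70), which overlapped. Inside cortex alone Havcr1 and Spp1 in Aoc1 spots had 1.09 (1.00 to 1.18) and 0.996 (0.986 to 1.01), where Havcr1 in Il24 spots had 1.89 (1.75 to 2.03). Within regions the Havcr1 ratio of Aoc1 spots was above 1 in 6 of 11, with 4 intervals above 1 and 1 below. That of Spp1 was above 1 in 7 of 11, with 6 intervals above 1 and 4 below. Aoc1 stood at 20.6, 21.7, 20.9 and 24.5 CPM in spots with 0, 1 or 2, 3 to 5 and 6 or more Havcr1 UMIs, with overlapping intervals. In 4 equal groups by Spp1 CPM it was at 13.96 CPM (11.2 to 17.2) in the lowest and between 24.0 and 24.5 in the other 3.

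**Figure D4:**
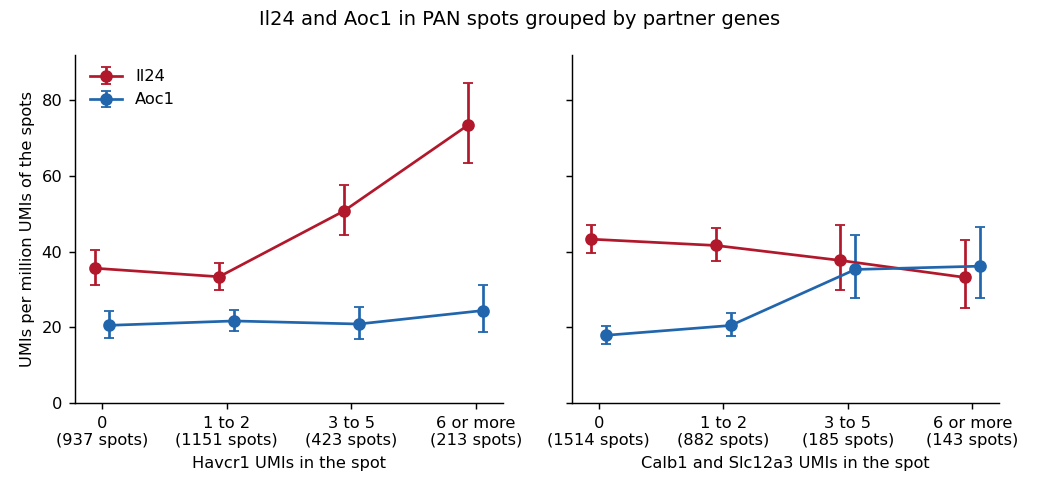
Level of Il24 and Aoc1 (CPM, exact 95% counting intervals) in PAN spots grouped by Havcr1 UMIs (left) and by Calb1 and Slc12a3 UMIs together (right). Il24 is at 73.4 in the spots richest in Havcr1 against 35.6 in those with none and Aoc1 lies between 20.6 and 24.5, whereas on the right Aoc1 is at 36.2 against 17.9.

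**Figure D5:**
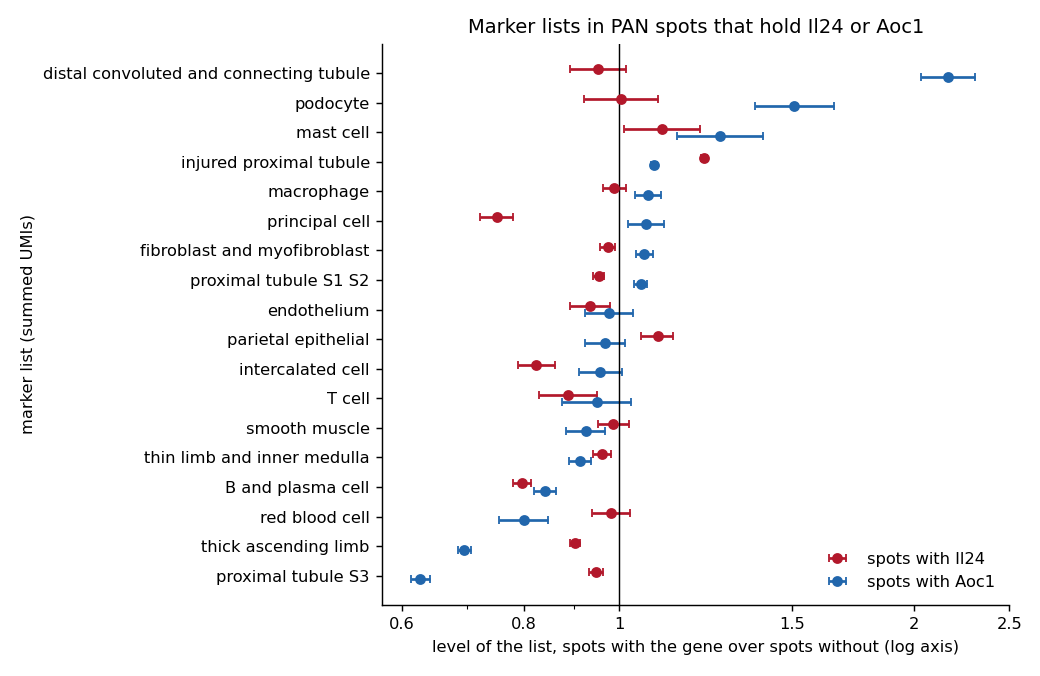
Ratio of the summed level of 18 of the 20 marker lists (those with at least 1000 UMIs in PAN) in spots with a gene over spots without it, on a log axis with exact 95% counting intervals, for Il24 and Aoc1. Distal convoluted and connecting tubule (2.16) and podocyte (1.51) markers stand out for Aoc1, the injured proximal tubule list (1.22), which is mostly Spp1, for Il24, and the principal cell list is low for Il24 (0.750). For Aoc1 it is at 1.07, with 1 of 5 genes, Hsd11b2 (1.57), above 1.

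Set directly against each other, spots with Aoc1 alone had 331 CPM of the distal convoluted and connecting tubule list against 145 in spots with Il24 alone, a ratio of 2.28. The podocyte list was at 133 against 88.8 and the principal cell list at 641 against 448, a list in which Hsd11b2 alone was above 1 in Aoc1 spots. The injured proximal tubule list was at 17799 in spots with Aoc1 alone, 20311 with Il24 alone, 23092 in spots with both and 16913 in spots with neither. Of that list's 453919 UMIs in PAN, 427824 were Spp1, so its levels and its ratios follow Spp1.

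By likeness of level over the 11 regions, the genes most like Il24 included Adra1d (Pearson r 0.90), Zfp329, Zbed3, Vmp1, Tead2, B4galnt4, Syt12, Fam110a and Ttf1 (0.86), while Spp1 was at 0.77 and Havcr1 at 0.51. Those most like Aoc1 were Lgals2 (0.93), Adgrg3, Aox1, Ppp3r1, Sectm1a, Npap60, Stra6, C6, Myrf and Cnih1 (0.88), and Calb1 was at 0.55. Adra1d was the gene that both measures named for Il24. These r values are over 11 regions of 1 section, chosen as the highest among 8309 genes, and are descriptions.

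The receptor genes of Il24 were scarce. Il20ra had 8 UMIs in PAN against 37 in healthy (ratio 0.508, 0.204 to 1.11) and Il22ra1 33 against 48 (1.62, 1.00 to 2.57). Il20rb, the shared chain, had 0 UMIs in all 4 sections, and the exact interval of 0 UMIs in PAN reaches 0.148 CPM. However, Pecam1 and Egf, genes of endothelium and of thick ascending limb, were also at 0 throughout. Il10rb, the chain that Il22ra1 uses for IL-22, was well counted, at 55.8 CPM against 33.2 (1.68, 1.57 to 1.80), and Il22ra2, a decoy receptor, had 10 UMIs against 1. In Il24 spots Il20ra had 1 UMI and Il22ra1 had 4, against 29 in the other spots (0.317, 0.0810 to 0.903). So 2 of the 3 measured receptor genes, Il22ra1 barely, were at least 1.5-fold higher in PAN with intervals not reaching 1, where 44.3% of all 13208 measured genes were, and the median log2 ratio of the list was 0.69 against 0.51 over all genes.

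Of the JAK-STAT3 list, 7 of 9 measured genes were higher in PAN and none lower, where 44.3% of all measured genes were higher and 9.85% lower, with a median log2 ratio of 1.16 against 0.51. Bcl3, a STAT3-induced regulator of NF-kappa B, was at 76.6 CPM against 11.1 (6.89, 6.30 to 7.54), Jak2 at 2.46-fold, Tyk2 at 2.38-fold and Stat3 at 195 against 84.1 (2.32, 2.23 to 2.42). In PAN_LS-FMD over PAN, 7 of 8 were lower, beside 35.5% of 12850 genes. Within PAN these genes did not follow Il24: Bcl3 was at 0.891 (0.805 to 0.985) in Il24 spots and Stat3 at 1.06 (0.995 to 1.12). Other injury cytokines were higher in PAN in 9 of 10 cases, beside 44.3% of all measured genes, among them Il11 (14.1-fold, 8.11 to 26.2), Il1b (7.82), Cxcl1 (6.89) and Osm (5.99), with Il33 at 0.868. Of the stress and death genes linked to IL-24, 2 of 7 were higher, Atf3 at 5.77 and Hspa5 at 2.52, below the share over all genes.

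On the enzyme side, Aoc3, the vascular copper amine oxidase, was at 7.38 CPM in PAN, 5.12 in healthy, 6.38 in PAN_LS-FMD and 4.86 in healthy_LS-FMD. Its ratio of PAN over healthy was 1.44 (1.19 to 1.74), below the 1.5-fold limit. Of 7 measured genes of histamine turnover, 2 were higher in PAN and 2 lower, where 44.3% of all measured genes were higher and 9.85% lower. Hdc, which makes histamine, was at 2.05 CPM against 0.273 (51 and 16 UMIs) and Maob at 1.81-fold. Hnmt, the intracellular enzyme that inactivates histamine, was at 137 against 565 (0.242, 0.233 to 0.250), and Slc22a2, a cation transporter of the proximal tubule, at 242 against 811. In PAN_LS-FMD over PAN, Hnmt was 5.66-fold and Slc22a2 3.53-fold higher, where 9.67% of 12850 genes were higher, and Hdc and Maob were lower. The sum of the S3 list was at 2774 CPM in PAN, where most of it was Kap, 20554 in healthy and 20797 in PAN_LS-FMD. The part of this list in these ratios was not tested.

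Of 8 measured polyamine synthesis genes, Azin1 was higher in PAN (1.54) and 3 were lower: Odc1, which makes putrescine, at 321 CPM against 787 (0.408, 0.399 to 0.418), Arg2 at 0.464 and Agmat at 0.317. Over all measured genes 44.3% were higher and 9.85% lower. Of 6 breakdown genes, Smox was higher (2.36) and Sat2, Aldh2 and Aldh9a1 were lower, at 0.531, 0.508 and 0.576. In PAN_LS-FMD over PAN all 3 lower synthesis genes were higher, beside 9.67% of all measured genes, Odc1 by 4.02-fold. In Aoc1 spots within PAN, Odc1 was at 246 CPM against 338 (0.727, 0.681 to 0.774) and Hnmt, of histamine turnover, at 90.4 against 147 (0.615, 0.553 to 0.682). Hnmt in Il24 spots was at 0.914 (0.847 to 0.985). The S3 list was also lower in Aoc1 spots, and lower in PAN than in healthy and PAN_LS-FMD, as given above. Its part in these ratios was not tested.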

How the data were processed

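RNA was counted on Visium spots of 4 kidney sections, 1 per group. The authors deposited counts (whole-number UMI counts per gene and spot, not normalized), made with Space Ranger 2.0.1 for healthy and 1.2.1 for the others, per the file headers. The genome build and annotation are not given in the sources used here. Any 2 sections shared 1650 to 2279 barcodes, which in Visium mark places on a slide.

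Spots under 500 UMIs were left out (2 to 5 per section), with no doublet caller because spots hold several cells. UMIs were summed over spots and divided by all their UMIs. Levels have exact Poisson intervals, ratios exact intervals of 2 Poisson counts and shares Clopper-Pearson intervals, computed with scipy 1.17.1. The ratio intervals were checked on section counts simulated as Poisson. This does not show how they hold where UMIs vary more than that between spots. A gene was measured at 20 UMIs over both sections, and higher or lower at 1.5-fold with an interval not reaching 1. PAN was clustered with scanpy 1.11.5 (10000 per spot, log, 2000 variable genes without Il24 and Aoc1, 30 components, 15 neighbours, Leiden resolution 1). A region took the zone whose list scored highest among 8 lists of tubule segments, podocytes and red blood cells, by mean log2(CPM + 10) less its mean over the section's regions. Other lists, such as fibroblast and intercalated cell, named no zone even where they scored higher. Named genes were the 10 most alike over sections (100 UMIs in PAN), spots and regions (200 UMIs), the largest ratios of each pathway list, and all receptors and amine oxidases. Some genes under this rule are not reported here. Others, named for their role, were chosen after values were seen. Members, lists and rules were chosen with earlier results of these data known. Alternatives were other spot filters, cortex alone, other denominators, thinning to 5000 UMIs and other clusterings.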

Additional observations from a re-analysis of the deposited data

How the results depend on the processing

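With 1 section per group no section could be left out, and a count of 0 to 11 UMIs outside PAN limits every fold. Of 104 recomputed values, 71 stayed within the counting interval of the value given, 32 moved outside it and 1 changed side. All deposited spots, at least 2000 UMIs per spot and a denominator without mitochondrial and haemoglobin UMIs moved none.

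Median-of-ratios size factors put PAN at 34.6 CPM for Il24 and 17.9 for Aoc1. In cortex alone Il24 was at 45.1 CPM in PAN, 0.0530 in healthy and 0 in healthy_LS-FMD, with PAN over healthy at 851-fold from 1 UMI. Aoc1 there was at 32.0 in PAN and 0 in PAN_LS-FMD and healthy_LS-FMD, with PAN over PAN_LS-FMD at least 125-fold against a floor of 3 counts. Thinned, Aoc1 was at 0 in healthy, at least 103.45-fold. Shares of PAN spots were 16.9% thinned and 6.86% at 2 UMIs or more for Il24, and 9.90% and 2.90% for Aoc1, with thinned co-detection at 10.97% and 18.7%.

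Havcr1 in Il24 spots had 1.55 thinned, 2.17 at 2 Il24 UMIs or more, 1.89 in cortex and 1.48 within 10 groups of equal depth, above 1 in 9 of them. Spp1 had 1.19, 1.36, 1.25 and 1.19. In Aoc1 spots Havcr1 had 1.39 thinned and 1.09 in cortex. Spp1 had 1.09 thinned, 1.09 at 2 Aoc1 UMIs or more and 0.996 in cortex, where it changed side with an interval that held 1. The highest Il24 region was at 180 CPM at resolution 2 and 86.5 when Havcr1 and Spp1 were also left out of the clustering. The highest Aoc1 region kept its level, at 46.6 to 51.4 CPM, but not its spots: it was a region of 27 spots at resolution 0.5 and of 35 without Havcr1 and Spp1, with 0% and 5.71% of them in the Postn-led region.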
